A study of Homo sapiens with 16 samples.

Results

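The regions described here are those that the peak lists of all 3 NF-κB antibodies covered in a single control preparation of T47D cells. The P65 (RELA), RelB (RELB) and NFkB2 (NFKB2) lists of Control replicate 1 were merged where intervals of up to 5000 bp shared at least 1 bp on chromosomes 1 to 22 and X, and the same was done for Control replicate 2. Of 1504148 merged regions in replicate 1, 35188 (2.34%) were called by all 3 antibodies, and of 1450464 in replicate 2, 30768 (2.12%) were. They were then split into regions that met a 3-antibody region of the other control replicate and regions that did not. The first kind counted 1730 in replicate 1, or 4.92% of its shared regions (95% exact Clopper-Pearson interval 4.69% to 5.15%), and 1732 in replicate 2, or 5.63% (5.37% to 5.89%). The other 33458 and 29036 shared regions were found in one replicate only. The regions were chosen by the control peak intervals themselves, and their counts, widths and positions are given as a description, with no test.

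T47D is an established estrogen receptor-positive luminal A breast cancer line. The control cells carried an empty vector according to the study's methods, while its results name a scrambled shRNA for T47D controls. The knockdown cells carried a stable shRNA against DAB2IP, a RasGAP that switches Ras signalling off. Both kinds of cells had been transduced with lentivirus and selected with puromycin, and chromatin was fixed with disuccinimidyl glutarate and formaldehyde. Each of the 6 combinations of condition and antibody had 2 libraries, so that 12 peak lists were used, and "preparation" is used for the 3 libraries that share a condition and a number. The labels name 1 input library for each preparation, but do not say which input each peak call used. They do not say whether the replicates were separate cultures, so the spread between them may be technical.

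NF-κB is a family of dimeric transcription factors. RELA acts mainly in the canonical pathway, which frees it from IκB inhibitors after inflammatory signals, while RELB and NFKB2 act together in the noncanonical pathway, in which NFKB2 is processed from a precursor by signals through MAP3K14. The subunits share a DNA-binding fold and can occupy the same κB sites at promoters and enhancers of cytokine, survival and inhibitor genes. No library with a non-specific antibody is among the samples used here.

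Only 13 of 15812 protein-coding genes with an annotated start (0.0822%) had a region shared in both control replicates within 1 kb of that start. The upstream sequences of ATR, U2AF1 and PCSK1N are shown because the shared region covered all of the 250 bases before the annotated start, which shows what lay under the few recurrent promoter regions. ATR encodes the kinase that responds to stalled DNA replication, U2AF1 a splicing factor that recognises the end of introns, and PCSK1N an inhibitor of prohormone convertase. Sequences are from RefSeq (GRCh38.p14), read 5′ to 3′ toward the gene, and capitals mark matches to a loose form of the κB site, GGG and CC with any 5 bases between them, on either strand.
ATR: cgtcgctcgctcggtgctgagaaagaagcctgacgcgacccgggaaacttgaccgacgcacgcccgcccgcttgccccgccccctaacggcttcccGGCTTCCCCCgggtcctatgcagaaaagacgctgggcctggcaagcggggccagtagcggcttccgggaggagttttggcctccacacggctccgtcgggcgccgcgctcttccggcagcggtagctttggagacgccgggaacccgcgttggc
U2AF1: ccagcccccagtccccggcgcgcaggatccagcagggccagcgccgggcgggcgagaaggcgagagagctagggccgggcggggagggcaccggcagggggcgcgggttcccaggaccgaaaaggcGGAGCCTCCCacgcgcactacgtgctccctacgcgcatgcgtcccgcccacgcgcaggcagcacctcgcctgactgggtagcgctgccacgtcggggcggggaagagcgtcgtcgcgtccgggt
PCSK1N: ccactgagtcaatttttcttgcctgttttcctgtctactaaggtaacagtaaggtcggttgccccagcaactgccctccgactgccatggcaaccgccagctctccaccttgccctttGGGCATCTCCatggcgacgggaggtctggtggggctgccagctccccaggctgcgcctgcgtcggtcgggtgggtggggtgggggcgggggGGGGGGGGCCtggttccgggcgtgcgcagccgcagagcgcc
The ATR stretch lies at chr3:142578734-142578983 on the minus strand, the U2AF1 stretch at chr21:43107571-43107820 on the minus strand, and the PCSK1N stretch at chrX:48835611-48835860 on the minus strand. The first holds 1 match to the 10-base pattern, the second 1 and the third 2.

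The same pattern was present in 18939 of all 34789 promoter stretches of this length (54.4%). It was present in 7 of the 10 stretches that a region shared in both replicates touched in replicate 1, and in 8 of the 10 in replicate 2, several of which overlap or belong to the same gene. For regions of one replicate only the shares were 149 of 290 (51.4%) and 95 of 197 (48.2%). A match says only that these letters are present. The median GC content was 68.2% in the 10 stretches of each replicate and 58.0% in all promoter stretches. For regions of one replicate only it was 57.6% and 51.2%, and GC content was not corrected for. The 10 of replicate 1 include stretches of LOC105371756 and LOC101928369, which are not among the 13 genes. The satellite repeat GGAAT in 2 tandem copies was in 0.069% of all promoter stretches, and the CENP-B box, a motif of centromeric repeats, in 0.0575%. Neither was in any of the 10 stretches. No miRNA hairpin of the 1558 annotated lay on a region shared in both replicates. Regions of one replicate only held 9 and 7, and all merged regions 227 and 203. Regions shared in both replicates were 0.115% and 0.119% of all merged regions. At these shares they would hold few or no hairpins, so the absence is not a result about them.

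At the ATR start the pileup at the summit, the number of fragments that lie over it, was 6, 5 and 7 in the P65, RelB and NFkB2 libraries of Control replicate 1 and 6, 5 and 3 in replicate 2. These stood over a local background of 1.23 to 1.64 fragments, for a fold enrichment (the peak caller's ratio of pileup to background) of 1.79 to 3.41. At U2AF1 the pileup was 3, 2 and 1 in replicate 1 and 2, 2 and 4 in replicate 2. Neither region had a peak in any of the 6 knockdown lists, and with pileups this low an absent peak is not evidence of absent binding. The PCSK1N region, 1015 bp wide, had 4, 2 and 4 fragments in replicate 1 and 2, 3 and 3 in replicate 2. It had a peak in 2 knockdown lists, P65 of replicate 1 at a fold enrichment of 3.34 and RelB of replicate 2 at 1.69.

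Among the other 10 genes, KLF13, a zinc-finger transcription factor gene, had its region at −598 bp from the start, with pileups of 1 to 3 in the 6 control libraries and a peak in the 3 lists of knockdown replicate 2. LOC102724971 had a peak in 2 knockdown lists and FGF13, a fibroblast growth factor family gene, in 1. DENND11, FOXD4L6, H2AP, KRTAP4-11, LOC124901637, PDE4DIP and SPATA31A5 had none. No control peak at any of the 13 genes had an adjusted p (q) of 0.05 or less, and the highest −log10 q was 1.14, in P65 of replicate 2 at LOC124901637. FOXD4L6, SPATA31A5, PDE4DIP and KRTAP4-11 have near-identical copies elsewhere in the genome, so the position of their reads is uncertain. Copies of the other genes, U2AF1 included, were not looked up, so their reads are not taken as uniquely placed either.

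Genes of 4 fixed lists were looked up for shared regions. The lists were 15 NF-κB subunits and inhibitors, 30 known targets, 9 genes that the study discusses and 10 luminal genes. No shared region of either kind lay within 1 kb of an annotated start in any of them (0 of 12, 24, 8 and 6 genes with a start), where 2.88% and 1.88% of all coding genes had a region of one replicate only there. No gene of the 4 lists held a region shared in both replicates inside its span, as 296 of 19974 coding genes (1.48%) did. At these background shares, lists of this size hold few or no such genes, so the absence is not a result about them.

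Regions of one replicate only did fall inside a few listed genes. Among subunits and inhibitors, NFKB1 held 2 in each replicate, MAP3K14 held 1 in replicate 1, and CHUK, IKBKG and REL held 1 each in replicate 2. That made 2 and 4 of 15 genes, beside 26.2% and 22.8% of all coding genes with a shared region in the span. Of the 30 targets, CXCL8 and SOD2 held 1 each in replicate 1 and CFLAR 2 in replicate 2. TBCA was the one gene discussed by the study, in replicate 1. ESR1, which encodes the estrogen receptor, held 4 and 3, GREB1 held 2 and KRT8 and PGR 1 each in replicate 1. Long genes hold more regions of any kind, and span length was not corrected for.

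The shared regions were found on chromosome X to a larger share than the regions of a single antibody. Chromosome X held 751 of the 1730 regions shared in both replicates (43.4%, exact interval 41.1% to 45.8%) and 757 of 1732 in replicate 2 (43.7%, 41.4% to 46.1%). It held 23.1% and 21.5% of the shared regions of one replicate only, 10.1% and 10.1% of 2-antibody regions and 6.32% and 6.31% of 1-antibody regions. The share on X was thus higher at each step, in both control replicates. With control peaks of −log10 p of at least 2 alone, an alternative added after the data were seen for these shares, the last step was not present. X then held 6.48% and 6.55% of 1-antibody regions, 9.48% and 9.45% of 2-antibody regions and 12.2% and 12.6% of shared regions of one replicate only. Of the 294 and 293 regions then found in both replicates it held 9.86% (6.71% to 13.9%) and 9.9% (6.73% to 13.9%). Exact intervals here and elsewhere cover counting error only and treat neighbouring regions as independent.

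The knockdown lists, which played no part in choosing the regions, had the same order in 1 of 2 preparations. In knockdown replicate 2 the X share was 6.87% for regions of 1 antibody, 11.1% for 2 and 20.4% (20% to 20.8%) for 3. In knockdown replicate 1 it was 8.35%, 12.1% and 12.1% (10.6% to 13.8%), so the step from 2 to 3 antibodies was not seen. Only 1619 regions were called by all 3 antibodies in that preparation. Its P65 and RelB lists held 105520 and 75060 intervals, where the other 10 lists held 517399 to 708547. In those 2 lists only 0.05% and 0.01% of the peaks gave whole fragment numbers under the peak caller's unscaled formulas, against 100% in each other list, so no pileups are given for them.

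**Figure D1:**
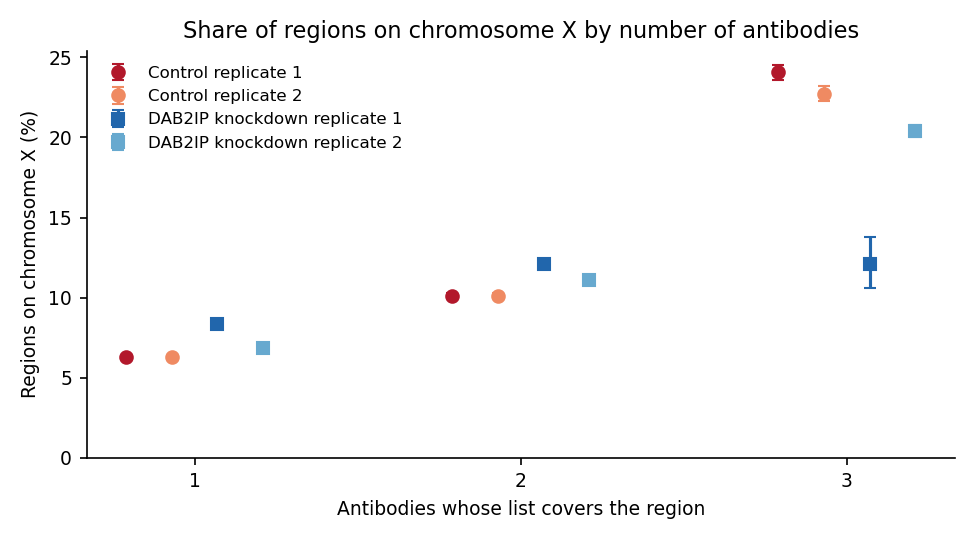
Percent of merged regions on chromosome X (y axis) by the number of antibodies whose list covers the region (x axis), for the 2 control preparations (circles) and the 2 knockdown preparations (squares), with 95% exact binomial intervals. For 3 antibodies the control values are 24.1% and 22.7%, knockdown replicate 2 is at 20.4% and knockdown replicate 1 stays at 12.1%.

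On X the shared regions lay almost wholly in the part of the chromosome from 60 Mb onward, a boundary set after the values of 10 Mb windows had been seen. Below 60 Mb, 1.80% of merged regions were shared in replicate 1 and 1.79% in replicate 2, close to the autosomal 1.92% and 1.77%. From 60 Mb on the values were 10.5% (10.3% to 10.7%) and 9.13% (8.91% to 9.34%). Of the regions found in both replicates, 744 and 750 lay from 60 Mb on and 7 and 7 below it. The same division was present in knockdown replicate 2, at 1.80% below and 7.51% from 60 Mb. In knockdown replicate 1 the values were 0.156% (0.0977% to 0.236%) and 0.369% (0.317% to 0.428%).

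The 5 windows of 1 Mb with most shared regions were all in that part. The first, X from 92 to 93 Mb, held 126 and 161 of 1047 and 987 merged regions. It was followed by X at 91 to 92 Mb (126 and 127), 87 to 88 Mb (112 and 116), 90 to 91 Mb (109 and 118) and 113 to 114 Mb (124 and 101). The coding genes that held most regions shared in both replicates were long genes of the same part of X. PCDH11X, a protocadherin gene of 844 kb, held 17, with 124 and 129 shared regions in all. DIAPH2, a formin gene, held 15, TENM1, a teneurin gene, 9, and DACH2, a dachshund family gene, 8. The fifth was ACACA on chromosome 17, the gene of acetyl-CoA carboxylase, with 6.

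Some autosomal windows also stood high. Of 285 autosomal windows of 10 Mb, 13 had at least 5% of their merged regions shared in replicate 1, and 10 of these reached 5% in both replicates, while the median autosomal window had 1.71% and 1.59%. On chromosome 12 the first 2 windows had 7.27% and 6.8% in replicate 1 and 6.21% and 5.13% in replicate 2. The other 12 windows of that chromosome had a median of 1.44% and 1.18%. Windows on chromosome 9 at 40 to 50 Mb (8.6% and 7.54%) and 60 to 70 Mb (7.6% and 7.89%), and on chromosome 1 at 120 to 130 Mb (8.25% and 6.68%), were higher than those. Chromosome 14 at 10 to 20 Mb had 7.37% and 9.0%, and chromosome 21 at 0 to 10 Mb 6.6% and 8.6%.

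The windows that stood high were for the most part windows of low local background. The background under P65 peaks, the fragments the peak caller expected at the summit, had a median of 0.314 over the 10 windows of X from 60 Mb in replicate 1 and 0.341 in replicate 2. It was 0.724 and 0.81 over the 6 windows of X below 60 Mb and 1.07 and 1.15 over the autosomal windows. On chromosome 12 it was 0.342 and 0.465 in the first 2 windows and 1.27 to 1.64 in the rest of replicate 1. Chromosome 16 at 30 to 40 Mb, with 5.25% and 5.59% shared, had a background of 0.93 in replicate 1. Other windows with at least 5% shared in replicate 1 also had a higher background there. It was 1.22 on chromosome 11 at 50 to 60 Mb and 1.11 on chromosome 1 at 140 to 150 Mb. On chromosome 15 at 20 to 30 Mb it was 0.943, and on chromosome 21 at 0 to 10 Mb 0.786. What part the background has in the number of shared regions was not tested.

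**Figure D2:**
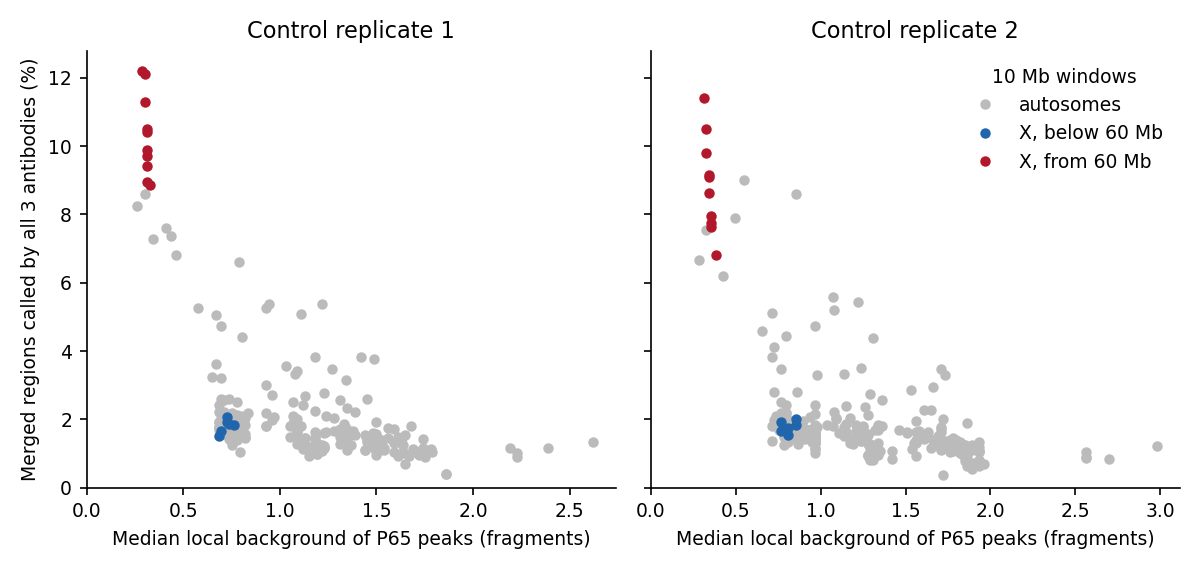
Percent of merged regions called by all 3 antibodies (y axis) against the median local background of P65 peaks in fragments (x axis), 1 point for each 10 Mb window with at least 1000 merged regions in Control replicate 1, with a panel for each control replicate. The 10 windows of X from 60 Mb (red) lie at backgrounds of 0.287 to 0.384 and 6.8% to 12.2% shared, and the 6 windows of X below 60 Mb (blue) lie among the autosomal windows (grey).

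At the level of single peaks the shared regions had a low background and few fragments. The median background of the peaks was 0.248 to 0.313 over the 6 control libraries on regions shared in both replicates, 0.576 to 0.739 on regions of one replicate only, 0.734 to 0.967 on 2-antibody regions and 0.734 to 1.14 on 1-antibody regions. The ranges of the first 2 kinds did not overlap with each other. The median pileup was 2 in every library on regions shared in both replicates and 3 or 4 on regions of 1 antibody. A pileup of 2 or fewer lay under 67.4% to 76.2% of the peaks of the first kind and 11.2% to 34.3% of those of the last. Fold enrichment hardly separated the kinds, with library medians of 1.90 to 2.21 for regions shared in both replicates and 2.16 to 2.23 for 1 antibody. The median −log10 p was 2.20 to 2.35 and 2.02 to 2.09. These peaks chose the regions, so the values are a description.

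The low background was not limited to X. On autosomes the regions shared in both replicates had library medians of 0.26 to 0.341 and those of one replicate only 0.658 to 0.824. On X the values were 0.237 to 0.313 and 0.248 to 0.327.

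The background at a given region was similar in the libraries of one preparation. Over the regions shared in both replicates, Spearman's rho of the background between 2 libraries of the same preparation was 0.865 to 0.905 (6 pairs of libraries, 1381 to 1730 regions). Between libraries of different control preparations it was 0.649 to 0.719 (9 pairs, 1522 to 1544 regions). On X the 2 ranges were 0.724 to 0.835 and 0.162 to 0.215. All points share the regional differences along the genome, and libraries of a preparation may share an input, so no p is given.

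**Figure D3:**
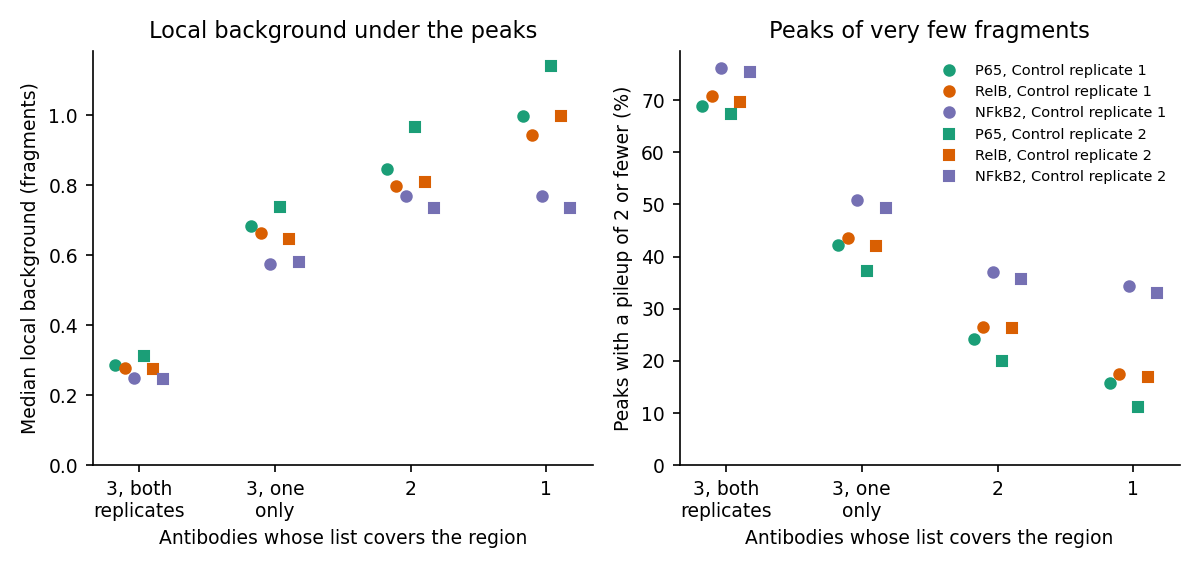
Median local background under the peaks, in fragments (left), and percent of peaks with a pileup of 2 or fewer fragments (right), by the number of antibodies whose list covers the region, 1 point for each of the 6 control libraries. Peaks on regions shared in both replicates have the lowest background, 0.248 to 0.313, and the highest share of very small pileups, 67.4% to 76.2%.

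A small group of recurrent regions had pileups far above those. The sequence of these regions was not searched for repeats, so it is not known whether their reads are uniquely placed. They are not read here as binding sites. Of the 1730 regions shared in both replicates, 89 had a peak at q of 0.05 or less in any control library, and 20 had one in all 6 control libraries. Per control library, 1.94% to 2.48% of the peaks on regions shared in both replicates reached that q. The share was 0.0932% to 0.203% on regions of one replicate only and 0.00152% to 0.0086% on 1-antibody regions. These peaks helped choose the regions, so the values are a description. The 20 regions with such a peak in all 6 control libraries had a median width of 221 bp, and 0 lay in a coding gene and 0 on X. They were on chromosome 1 (5 regions), 2 (1), 5 (2), 10 (4), 16 (5) and 17 (3). They lay at 125 and 143 Mb of chromosome 1, 92 Mb of 2, 49 Mb of 5 and 40 and 41 Mb of 10. On chromosome 16 they lay at 34 and 46 Mb, and on 17 at 23, 25 and 26 Mb. Where these 20 regions lie relative to centromeres and satellite repeats was not annotated. Each also had a peak at q of 0.05 or less in at least 1 knockdown library, 9 had one in all 6, and the fewest knockdown lists with any peak on such a region was 4.

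The region with the highest values in its weakest library was chr5:49646015-49646195, 750.0 kb from the nearest coding gene, EMB. Its −log10 q was 22.5 and 34.8 with P65, 34.3 and 19.9 with RelB and 28.6 and 25.6 with NFkB2 in Control replicates 1 and 2. In knockdown replicates 1 and 2 it was 20.3 and 20.8 with RelB and 20.7 and 22 with NFkB2, and with P65 it was 11.7 in replicate 2, with no peak listed in replicate 1. Pileups in the control libraries were 82 to 109 fragments. Control and knockdown values thus overlapped for RelB, while those of NFkB2 and P65 were lower in the knockdown lists, where a −log10 q also depends on depth. The region was chosen for its high control values, and this choice alone favours lower values in the knockdown lists. No effect of the knockdown is read from it.

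At chr16:46386319-46386576, 192.0 kb from SHCBP1, the −log10 q was 17.1 to 26.9 in the 6 control libraries and 9.86 to 41.8 in the 6 knockdown libraries. Control pileups were 232 to 251 fragments there at a fold enrichment of 2.05 to 2.53. At chr1:143214445-143214874, 688.0 kb from H3-7, the −log10 q was 15.2 to 34.9 in control and 3.31 to 41.2 in knockdown libraries, with control pileups of 257 to 262. The groups overlapped at both regions.

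The other 5 of the 8 regions with the highest such values were chr5:49630831-49631175, chr17:25074385-25074564, chr17:26594802-26594975, chr16:34586765-34586936 and chr1:143217284-143217534. Their lowest control −log10 q was 16.1, 12.8, 11.1, 11.0 and 10.5. They had peaks in 6, 5, 4, 5 and 5 of the knockdown lists, and the nearest coding genes were 765.0, 2220, 699.0, 197.0 and 685.0 kb away.

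A smaller share of the regions found in both replicates than of the other regions lay in coding genes, on autosomes as well as overall. Of them, 26.5% (24.5% to 28.7%) in replicate 1 and 26.3% (24.3% to 28.5%) in replicate 2 overlapped a coding gene, against 37.9% (37.4% to 38.4%) and 37.1% (36.5% to 37.6%) of regions of one replicate only and 43.4% and 42.7% of regions of 1 antibody. With X left out the values were 26.3% and 26.3% against 40.5% and 39.0%. With control peaks of −log10 p of at least 2 alone the difference was −20.1 percentage points, where all peaks gave −11.0. On X alone the values were 26.9% and 26.4% against 29.2% and 30.2%. Within 1 kb of a gene start lay 0.925% (0.53% to 1.5%) and 0.924% (0.529% to 1.5%) of regions shared in both replicates, and 1.37% (1.24% to 1.5%) and 1.02% (0.907% to 1.14%) of those in one only. With 16 and 16 regions at a start, counted from either replicate and not independent, these shares are a description. No difference is read from them.

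The median width was 527 and 533 bp for regions shared in both replicates and 510 and 511 bp for those in one only. Widths over 1000 bp were found for 8.84% and 9.76% of the first and 5.04% and 5.36% of the second. The order of the medians depended on the chromosome. On X it was 617 and 619 bp against 559 and 563 bp, and on autosomes 473 and 480 bp against 498 and 499 bp. With control peaks of −log10 p of at least 2 alone, the regions found in both replicates had the smaller median, by a difference of −119 bp. A wider region has more chance to meet another, and merged regions of 3 lists are wider by construction than the 178 and 181 bp of 1-antibody regions.

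The edge of the rule was soft. In replicates 1 and 2, 1649 and 1344 shared regions were joined by overlaps of 10 bp or less at some point, with a median width of 562 and 567 bp. Just outside it, 1693 and 1428 regions of 2 antibodies had a peak of the third within 10 bp, with a median width of 338 and 346 bp. Of the shared regions, 61.3% and 61.2% held a base that lay in a peak of all 3 lists, and the rest were chains.

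The knockdown lists served to ask whether regions that all antibodies share in a control preparation return in cells with DAB2IP knocked down, and whether those found in both control replicates return more. In the knockdown lists in the order P65, RelB and NFkB2 of replicate 1 and then of replicate 2, a peak lay on 9.25%, 6.59%, 37.7%, 37.7%, 32.4% and 42.9% of the regions shared in both replicates, taken from Control replicate 1. For those of one replicate only the values were 4.15%, 3.08%, 23.1%, 25.9%, 20.8% and 27.1%. The background over all merged regions of Control replicate 1 was 1.87%, 1.33%, 10.7%, 12.9%, 10.7% and 12.9%. The regions of Control replicate 2 gave 9.06% to 43.1% with P65 and NFkB2 and 6.64% and 32.1% with RelB for both replicates. Their one-replicate regions gave 2.93% to 27.7%, over a background of 1.88%, 1.31%, 10.7%, 13.0%, 10.8% and 13.0%.

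Averaged over the control replicates, regions shared in both replicates exceeded those in one only by 10.1 ± 4.87 percentage points (SD, n = 6 knockdown libraries), from 3.61 to 15.6, and were higher in 6 of 6. The exact two-sided sign-flip permutation p was 0.0312, the smallest that 6 libraries allow, and 0.0625 after Benjamini-Hochberg adjustment over the 4 tests made, so the difference did not pass 0.05. The 6 libraries come from 2 preparations and are not independent. Where the midpoint of the region had to lie in the peak the difference was 6.11 points, and among the 50000 knockdown peaks with the highest −log10 p of each list it was 4.31 points, in 6 of 6 libraries each. Without chromosome X, an alternative chosen after the data were seen, the difference was 11.9 points. Its unadjusted permutation p was 0.0312, as with all chromosomes. The adjusted permutation p of 0.0417 was lower only because another of the 4 tests also reached that smallest p. On X alone the difference was 3.01 points and positive in 4 of 6 libraries (unadjusted permutation p = 0.125).

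On X and on autosomes the values were compared list by list. With regions of Control replicate 1, the knockdown P65 list of replicate 1 had a peak on 12.1% of autosomal regions shared in both control replicates and on 4.05% of those in one only, and on X on 5.59% and 4.49%. In the P65 list of replicate 2 the values were 35.6% and 21.8% on autosomes and 40.3% and 39.4% on X, and with regions of Control replicate 2 the order on X turned in that list, at 37.8% and 39.9%. In the NFkB2 lists the values on X were 39.0% and 34.7% in replicate 1 and 49.0% (45.4% to 52.6%) and 39.8% (38.7% to 40.9%) in replicate 2. In the RelB list of replicate 2 they were 32.5% and 26.2%, and in that of replicate 1 the order was turned, at 3.2% and 3.53%.

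Shared regions of either kind exceeded regions of 1 antibody by 10.4 ± 6.33 percentage points (SD, n = 6), from 2.01 to 16.4, again in 6 of 6 libraries (exact sign-flip permutation p = 0.0312, adjusted p = 0.0625). Without knockdown replicate 2 the mean was 6.32 points. As a ratio, shared regions of Control replicate 1 had a peak 2.45 to 2.71 times as often as regions of 1 antibody in knockdown replicate 1 and 2.19 to 2.38 times in knockdown replicate 2. In the lists of the other control replicate the ratio was 2.29 to 2.37. A wider region meets more peaks. Within bands of region width the difference was 5.34 points, and where the midpoint of the region had to lie in the peak it was 2.54 points, and among the 50000 knockdown peaks with the highest −log10 p 1.89 points, in 6 of 6 libraries each.

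**Figure D4:**
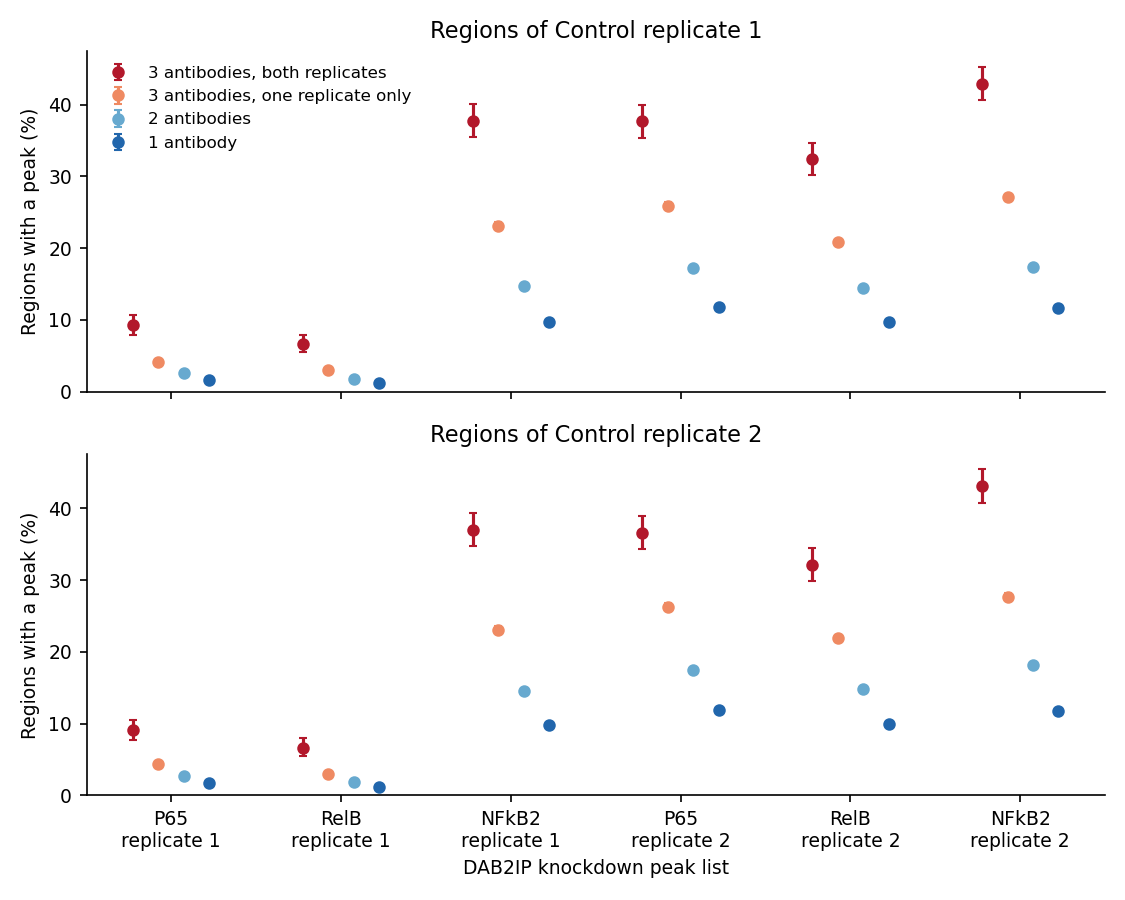
Percent of regions with a peak (y axis) in each of the 6 knockdown lists (x axis), for regions of Control replicate 1 (top) and Control replicate 2 (bottom), with 95% exact binomial intervals. In each list the order is the same, with regions shared in both control replicates (6.59% to 43.1%) highest and regions of 1 antibody (1.17% to 11.9%) lowest.

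Recurrence over several knockdown lists was rarer. Of the 1730 regions shared in both replicates, 370 (21.4%) had a peak in none of the 6 knockdown lists, 431 (24.9%) in at least 3 and 26 (1.5%) in all 6. For regions of one replicate only in Control replicate 1 these shares were 37.5%, 10.3% and 0.0448%, and for regions of 1 antibody 63.9%, 1.31% and 0.000714%.

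A stricter form of recovery asks for all 3 antibodies again. Of the shared regions of Control replicate 1, 4.92% met a 3-antibody region of Control replicate 2, 4.76% (4.54% to 4.99%) one of knockdown replicate 2 and 0.392% (0.33% to 0.463%) one of knockdown replicate 1. Over all merged regions these backgrounds were 1.22%, 1.38% and 0.0586%. From Control replicate 2 the values were 5.63%, 4.94% and 0.432% over 1.38%, 1.41% and 0.0570%. From Control replicate 2 the exact intervals were 5.37% to 5.89% for the other control replicate and 4.70% to 5.18% for knockdown replicate 2. They cover counting error over regions only, with 1 preparation on each side. No difference between the conditions is read from them. Of regions shared in both control replicates, 11.6% (10.1% to 13.2%) and 11.8% (10.3% to 13.4%) were again shared by all 3 antibodies in knockdown replicate 2, and 4.41% and 4.53% of those in one only.

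Over the 4 preparations, 93550 of the 3-antibody regions occurred in 1 preparation, 4287 in 2, 272 in 3 and 26 in 4. The share on X was 19.9%, 43.7%, 49.3% and 0%, so the few regions common to all 4 were autosomal. To count in all 4, a region had to meet one of the 1619 of knockdown replicate 1, of which 12.1% lay on X. The small list of that preparation thus enters the step from 3 to 4. Of these 26, 8 lay at 143 Mb of chromosome 1, 3 at 125 Mb of the same chromosome, 3 at 40 Mb of chromosome 10, and 3 each at 34 and 46 Mb of chromosome 16. Their median width was 297 bp, against 1092 bp for the regions in 3 preparations. The sequences of the 26 regions were not searched for repeats either.

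The strength of knockdown peaks on the shared regions differed from that of other knockdown peaks by less than the spread between libraries. In the order P65, RelB and NFkB2, the median −log10 p on shared regions was 2.27, 2.19 and 2.04 in knockdown replicate 1, where other peaks had 2.06, 2.05 and 2.05. In replicate 2 it was 1.96, 2.17 and 2.04, where other peaks had 2.07, 2.06 and 2.11. The mean difference was 0.0455 ± 0.127 (SD, n = 6), positive in 3 of 6 (exact sign-flip permutation p = 0.406, adjusted p = 0.5). Median fold enrichment differed by −0.0437 ± 0.153 (positive in 3 of 6, exact permutation p = 0.5, adjusted p = 0.5). Without X, chosen after the data were seen, the −log10 p was higher on shared regions in 6 of 6 libraries, by 0.147 (adjusted permutation p = 0.0417). With control peaks of −log10 p of at least 2 alone it was higher by 0.241 (adjusted permutation p = 0.0417). On X alone the mean difference was −0.0788. In both settings with an adjusted p of 0.0417 the unadjusted permutation p was 0.0312, the smallest that 6 libraries allow. The 6 libraries come from 2 preparations and are not independent.

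Peaks at q of 0.05 or less were unevenly placed among the knockdown peaks. On shared regions lay 2.7% to 2.94% of the peaks of a knockdown list and 27, 41 and 59 of the 43, 77 and 123 such peaks in replicate 1. In replicate 2 they were 60, 73 and 54 of 113, 200 and 102. On X, 1 of these 314 peaks on shared regions was found, in RelB of replicate 2.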

How the data were processed

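Immunoprecipitated DNA was sequenced by the authors' provider (paired-end, base calls with CASAVA 1.8), mapped to hg38 with BWA 0.7.12, and peaks were called in each library with MACS2 2.1.0; DiffBind is also named in the submitters' processing notes. The authors' lists hold, per peak, the deposited start, end and summit in bp, a ratio (the fold enrichment over local background), and p and q (adjusted p) as −log10 values. The largest p in each list was 0.05, read totals are not given, and the depth is unknown. The 4 input libraries enter only through the peak calls.

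Lists were taken as deposited, limited to chromosomes 1 to 22 and X and to intervals of up to 5000 bp. In the control lists 0 intervals were longer. In knockdown replicate 2 the limit took out 1281 intervals of the P65 list and 1308 of the NFkB2 list. The longest of these spanned 1185828 and 1185699 bp. Merging used Python 3.11.15, numpy 2.4.6, pandas 2.3.3 and scipy 1.17.1. Figures used matplotlib 3.10.9. A merged region was called by an antibody when one of its peaks was in it. Pileup and local background were recovered from the ratio and the p-value with the caller's own formulas (Poisson, with 1 added to both numbers of the ratio, −log10 p matched within 0.0002). On simulated data 3000 of 3000 planted regions got the right number of antibodies and 99.6% of 5000 summits the right pileup. Genes (19974 coding genes, 15812 of them with a start) and promoter sequences came from RefSeq tables of GRCh38.p14, the build of the lists.

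Recovery in a knockdown list meant an overlap of at least 1 bp. Differences per knockdown library were averaged over both control replicates and tested with exact two-sided sign-flip permutations (smallest p 0.0312), adjusted by Benjamini-Hochberg over 4 tests with a threshold of 0.05. Groups and replicate numbers came from the titles. Named regions were the 8 with the highest smallest −log10 q over the control libraries and the 5 windows of 1 Mb with most shared regions. Named genes were coding genes with a recurrent region within 1 kb of the start, the 5 with most in their span, and members of the fixed lists. The regions, lists and tests were chosen with earlier results of these data known.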

Additional observations from a re-analysis of the deposited data

How the results depend on the processing

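Keeping control peaks with −log10 p of at least 2 alone left 8149 and 7586 shared regions in the control replicates, 294 of them found in both in replicate 1, with 9.88% of these on X, where all peaks gave 43.6% as the mean of both replicates. There the recurrent regions were narrower by a median of 119 bp (difference −119), and the difference in the share inside genes was −20.1 points and at gene starts −0.657 points. Recovery differences became 16.2 points (both against one only) and 11.5 points (shared against 1 antibody). The difference in median −log10 p was 0.241 and that in fold enrichment 0.00572. The first 3 of these passed the threshold (adjusted permutation p = 0.0417, 0.0417 and 0.0417). For the recovery differences the unadjusted permutation p was 0.0312, as with all peaks. Their adjusted p fell only because the −log10 p difference also reached that smallest p. The median width of recurrent regions was then below that of the others, and their share on X was lower than with all peaks.

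Asking for a base in a peak of all 3 lists left 21558 and 18844 shared regions and 900 recurrent ones, 36.0% of them on X, with a gene-span difference of −13.1 points. Asking for 50% of the shorter region turned the width difference to −2.75 bp and gave 38.2% on X and −11.8 points in gene spans. Without X, chosen after the data were seen, the width difference was −22 bp, the gene-span difference −13.5 points, the recovery differences 11.9 and 8.45 points, the −log10 p difference 0.147 and the fold difference 0.0516. On X alone these were 57.0 bp, −3.02 points, 3.01 and 13.5 points, −0.0788 and −0.115. The cause of these changes was not tested. Removing the length limit left 1730 recurrent regions, a count it could not change because no control interval was longer. The recovery differences were then 10.2 and 10.5 points.

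Among the 50000 knockdown peaks with the highest −log10 p, the recovery differences were 4.31 and 1.89 points. Leaving out a control or a knockdown replicate gave 7.59 to 12.5 points, 6.32 to 14.4 points, −0.0227 to 0.114 for −log10 p (−0.0227 without knockdown replicate 1) and −0.125 to 0.0376 for fold enrichment (0.0376 without knockdown replicate 2). With 1 knockdown preparation the smallest p is 0.25. Averaged within each knockdown replicate number as a replicate block, the recovery differences were 10.1 and 10.4 points, the others 0.0455 and −0.0437, and the smallest p is 0.5. The replicate numbers do not pair the samples: lists of the same number overlapped by a Jaccard index of 0.59% to 3.68%, those of different numbers by 0.567% to 3.63%. Pileups of 2 fragments or fewer, under most peaks on recurrent regions, limit what these can show.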
